A study of Mus musculus with 9 samples.

Results

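Kupffer cells, the macrophages that live in the sinusoids of the liver, were followed through 32 genes on 9 mouse arrays. The genes were a named list, each found by its symbol in the platform annotation and read by the probe set of that symbol with the highest mean over all arrays. All 32 were measured, of 18193 genes in all. Of these, 5 genes (Clec4f, Timd4, Vsig4, Cd5l and Marco) mark Kupffer cells, and the other 27 are shared more widely among myeloid cells and are called general myeloid genes here. The study set 5 hepatocellular carcinomas against 4 normal livers. The carcinomas came from mice titled triple knockout (TKO), with both copies of Rb and p130 deleted and p107 listed as +/-. These mice had received Ad-Cre, an adenovirus that carries Cre recombinase, by intrasplenic injection 4 months before dissection. The normal livers were wild type, adult and without tumours, and no virus is listed for them. Genotype, virus and tumour state thus varied as one between the groups and cannot be told apart. The labels give neither the cells that the virus reached nor the age or sex of the mice. Nor do they state that each sample came from a separate mouse, so p-values measure only the spread between these samples.

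Kupffer cells settle in the liver before birth and largely renew themselves there. They are known for clearing bacteria, worn red cells and apoptotic cells from portal blood. Their identity is kept up by signals from sinusoidal endothelial cells, stellate cells and hepatocytes. A resident cell that is lost can be replaced by a blood monocyte, which first carries the genes common to all macrophages and only later the Kupffer-specific ones. The lineage as a whole depends on the transcription factor PU.1, the product of Spi1, which binds purine-rich sites with a GGAA core, and on the receptor for colony-stimulating factor 1.

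Values are log2 expression after RMA normalisation, so a difference of 1 is a doubling. Each difference is tumour minus liver and was tested with limma across all 18193 genes, with Benjamini-Hochberg adjustment and a threshold of 0.05. The TrpnX control values, which stand for background, ran from 3.69 to 4.36. All 32 members had means of at least 5 over the 9 arrays. Tumours 1 and 2 and liver 4 stood apart in Xist, a transcript of the inactive X chromosome, with 6.34 to 6.66 against 12.68 to 13.55 on the other 6 arrays. The same 3 arrays were often the low ones for the members. Results without them are given beside those of all 9 arrays, not in their place. The 3' minus 5' signal of the Actb control, a measure of transcript length after amplification, is larger where transcripts are shorter. It averaged 0.605 ± 0.0791 in tumours, against 0.965 ± 0.0436 in livers (SD, n = 5 and 4, two-sided exact permutation p = 0.00794, the smallest that 126 splits allow, and 0.0159 after adjustment over 2 controls). The same measure for Gapdh went the other way, at -0.212 ± 0.0268 in tumours, against -0.278 ± 0.049 in livers (exact p = 0.0635). The part of transcript length in the results was not tested.

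The Kupffer-specific genes were low in the tumours. Of the 5, 4 passed as lower (Clec4f, Timd4, Vsig4 and Marco), each by more than 4-fold, with no overlap between tumours and livers. The fifth, Cd5l, was lower on average but did not pass. Among all genes 17.4% passed as lower, 1.18% passed at 4-fold lower or more, and 15.9% did not overlap as lower. The median difference of the 5 genes was -2.90, against -0.08 over all genes. In whole tissue, fewer Kupffer cells and less of each RNA per Kupffer cell cannot be told apart. The summed level of 7 endothelial markers, in which the brightest weigh most, was also lower, at 10.42 to 11.37 in tumours, against 12.38 to 12.69 in livers. Of the 7, however, 2 passed as higher and 3 as lower, and their median difference was -0.37. The part of endothelium in these results was not tested.

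**Figure D1:**
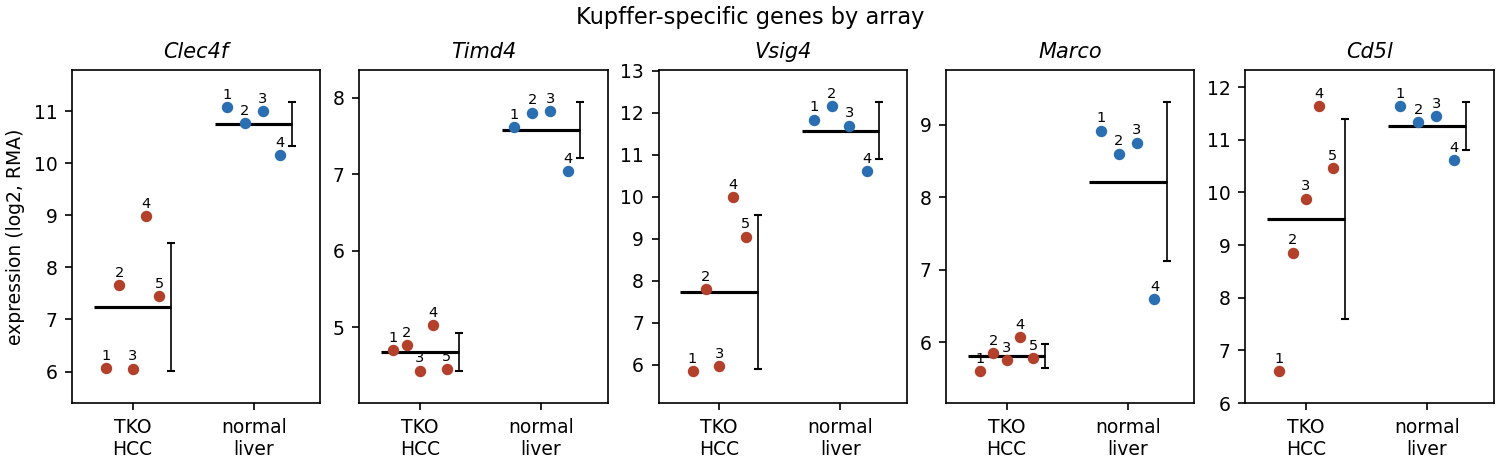
Log2 expression (RMA) of the 5 Kupffer-specific genes on each array, TKO HCC left and normal liver right, with replicate numbers beside the points, bars at the mean and whiskers of 1 SD (n = 5 and 4). Timd4 was 4.43 to 5.02 in tumours, against 7.04 to 7.82 in livers, while Cd5l of tumour 4 (11.64) lay level with liver 1 (11.64).

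Clec4f encodes a galactose-binding lectin that in mice is confined to Kupffer cells. It measured 6.06, 7.66, 6.05, 8.99 and 7.45 in tumours 1 to 5, against 11.08, 10.77, 11.00 and 10.15 in livers 1 to 4. Every tumour lay below every liver, with tumour 4 the closest. The difference was -3.51 (SE 0.57, adjusted p = 0.00179), an 11.4-fold lower level. Timd4 encodes a phosphatidylserine receptor with which long-lived resident macrophages hold apoptotic cells. It was 4.70, 4.76, 4.43, 5.02 and 4.45 in the tumours, against 7.62, 7.80, 7.82 and 7.04 in the livers. All 5 tumours lay within 1 log2 unit of the highest TrpnX value, and RMA compresses differences that near to the background. Timd4 fell by 2.90 (SE 0.19, adjusted p = 6.4e-06), with the smallest error of the 5 genes.

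Vsig4 encodes a complement receptor that lets Kupffer cells catch C3b-coated bacteria from the blood. Its values were 5.85, 7.79, 5.96, 9.99 and 9.04 in tumours, against 11.83, 12.15, 11.69 and 10.61 in livers. The tumours spread over more than 4 log2 units without reaching the lowest liver. The difference of -3.85 (SE 0.85, adjusted p = 0.00839), or 14.4-fold, was the widest among the 32 members. Marco, a scavenger receptor for bacteria and particles, was 5.61, 5.85, 5.75, 6.07 and 5.78 in tumours, against 8.92, 8.61, 8.75 and 6.59 in livers. The tumours were nearly level, and liver 4 stood far below the other livers though still above every tumour. Marco fell by 2.41 (SE 0.43, adjusted p = 0.00284), and its other probe set fell by 1.62 (adjusted p = 0.00246).

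Cd5l encodes a secreted protein of tissue macrophages, known as apoptosis inhibitor of macrophages. It was 6.61, 8.85, 9.88, 11.64 and 10.46 in tumours 1 to 5, against 11.64, 11.34, 11.45 and 10.61 in livers. Tumour 4 was as high as the highest liver, and tumour 1 was the lowest of all arrays. The difference of -1.77 (SE 0.86, 95% interval -3.71 to 0.17) had an adjusted p of 0.138. It passed without tumour 4 (-2.31, adjusted p = 0.0465) and with centring on housekeeping genes (-2.26, adjusted p = 0.0212). Without tumour 1 it was -1.05 (adjusted p = 0.17), and without the 3 arrays of low Xist -0.82 (adjusted p = 0.191). Clec4f, Timd4, Vsig4 and Marco kept their calls under all 18 alternatives, with adjusted p of at most 0.0393.

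The 250 bases before the start of Clec4f, Timd4 and Vsig4 are shown because, of the 5 Kupffer-specific genes, these 3 hold GGAAGT there. GGAAGT extends the GGAA core, and other sites with that core were not counted. Sequences are RefSeq's for GRCm38.p6, printed along the strand of the gene, and capitals mark GGAAGT or its reverse complement ACTTCC. They cover chr6:83656117-83656366 on the minus strand, chr11:46810549-46810798 on the plus strand and chrX:96293439-96293688 on the minus strand. The first base of the motif lies 33 bases before the start in Clec4f, 72 in Timd4 and 63 in Vsig4.
Clec4f: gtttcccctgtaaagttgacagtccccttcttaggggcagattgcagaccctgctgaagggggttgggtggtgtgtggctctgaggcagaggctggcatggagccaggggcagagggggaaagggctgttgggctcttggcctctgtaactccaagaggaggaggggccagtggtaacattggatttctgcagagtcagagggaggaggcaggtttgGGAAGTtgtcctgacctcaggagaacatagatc
Timd4: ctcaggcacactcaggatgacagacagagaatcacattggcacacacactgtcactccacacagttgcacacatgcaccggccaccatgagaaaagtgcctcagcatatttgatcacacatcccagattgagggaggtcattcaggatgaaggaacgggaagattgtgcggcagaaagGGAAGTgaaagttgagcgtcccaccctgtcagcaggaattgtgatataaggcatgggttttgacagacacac
Vsig4: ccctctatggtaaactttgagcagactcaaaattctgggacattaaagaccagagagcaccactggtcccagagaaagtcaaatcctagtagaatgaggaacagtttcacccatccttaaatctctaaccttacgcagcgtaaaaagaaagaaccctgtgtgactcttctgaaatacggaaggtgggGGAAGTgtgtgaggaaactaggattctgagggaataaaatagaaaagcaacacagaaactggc
The motif, searched on both strands, was in 3 of 5 Kupffer-specific promoters (60.0%) and in 9 of the 21 general myeloid promoters that the table holds (42.9%). Over 27025 genes it was in 22.2%. The stretches of Cd5l and Marco, the latter low in every tumour, do not hold these letters. A match describes the sequence and shows no binding. Spi1 itself was 6.98, 7.14, 7.96, 7.98 and 7.73 in tumours, against 7.68, 7.48, 7.62 and 7.36 in livers, a difference of 0.02 (adjusted p = 0.943).

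Outside the 5 genes, the general myeloid genes went in no single direction. Of the 27, 1 passed as higher (Cd14) and 6 as lower (Folr2, Id3, Cd163, Csf1r, Msr1 and Ccr2), and 20 did not pass. Among all genes 16.1% passed as higher and 17.4% as lower, so the count higher is below that background and the count lower is close to it. The median difference was -0.07, against -0.08 over all genes. Over the 32 members, 10 did not overlap as lower and 2 as higher (Cd14 and Cx3cr1), beside 15.9% and 14.0% of all genes. Of the 32, 7 passed at 4-fold lower or more, and these were Folr2, Id3 and Cd163 beside the 4 Kupffer-specific genes.

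**Figure D2:**
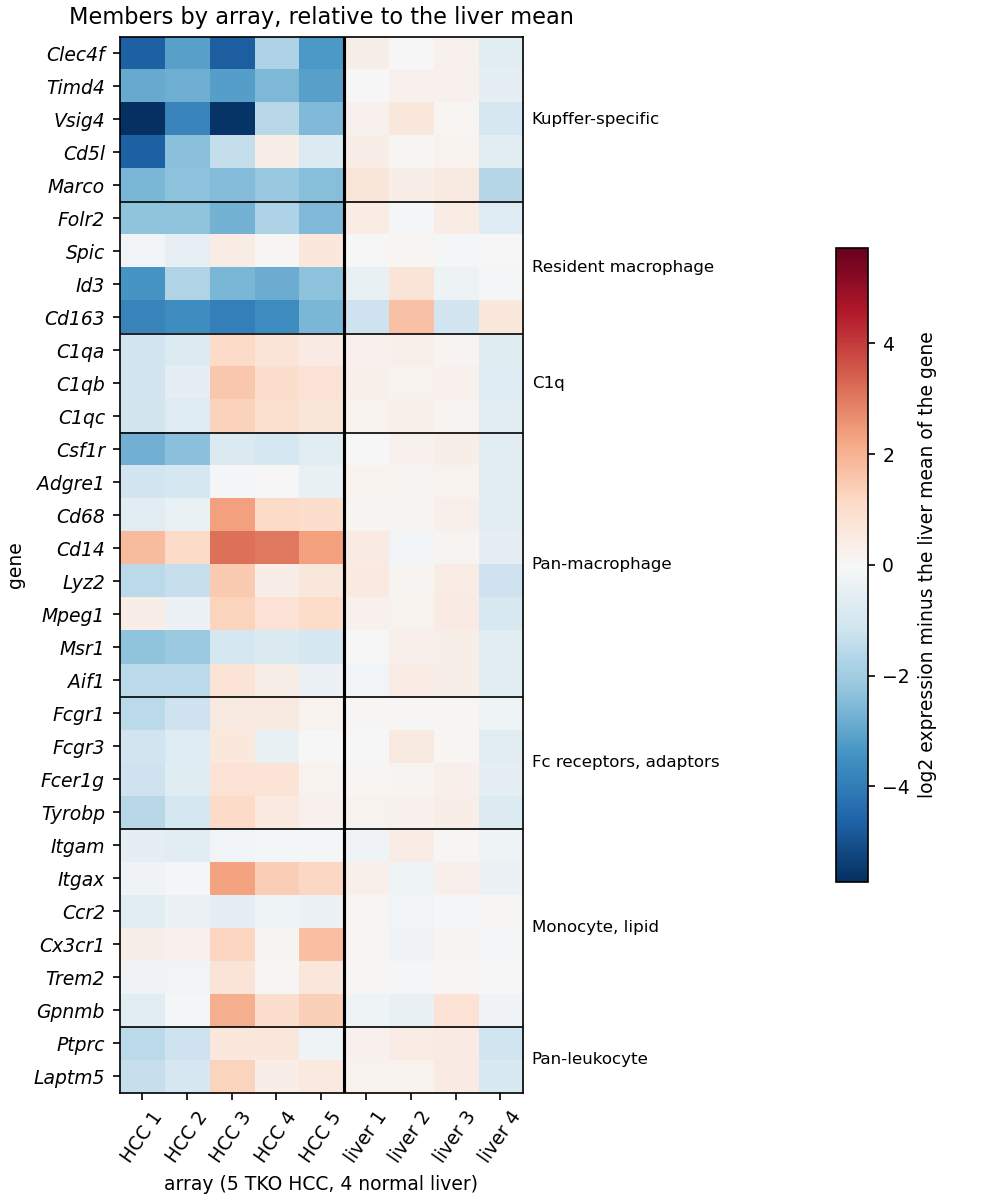
Log2 expression of each of the 32 members minus its mean over the 4 livers, with arrays in columns (TKO HCC left, normal liver right) and genes in rows by role. The Kupffer-specific rows, Folr2, Id3 and Cd163 are below the liver mean in all 5 tumours except for Cd5l in tumour 4. Csf1r, Adgre1, Msr1, Itgam and Ccr2 are below it in all 5 as well, by less. Most other rows are below it in tumours 1 and 2 and above it in tumour 3.

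The genes of resident macrophages went the way of the Kupffer-specific ones, apart from Spic. Folr2, the beta folate receptor of tissue-resident macrophages, was 6.46, 6.44, 6.04, 6.97 and 6.21 in tumours, against 9.16, 8.68, 9.17 and 7.99 in livers. The groups were more than 1 log2 unit apart, and the difference was -2.33 (SE 0.27, adjusted p = 0.000279). Id3 encodes an inhibitor of basic helix-loop-helix factors that mouse Kupffer cells need and that other liver cells express too. It was 7.43, 9.11, 8.22, 7.99 and 8.48 in tumours, against 10.40, 11.57, 10.55 and 10.76 in livers. No tumour reached the lowest liver, and Id3 fell by 2.58 (SE 0.34, adjusted p = 0.000625).

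Cd163, the receptor that takes up haemoglobin bound to haptoglobin, was 4.51, 4.72, 4.37, 4.68 and 5.66 in tumours, against 7.09, 9.96, 7.16 and 8.90 in livers. Tumours 1 to 4 lay near the background, so the true difference may be larger than measured, and the livers were spread over nearly 3 log2 units. The measured difference was -3.49 (SE 0.58, adjusted p = 0.00206). Folr2, Id3 and Cd163 kept their calls under all 18 alternatives. Spic, a factor of macrophages that recycle iron from red cells, was 6.67 to 7.76 in tumours, against 7.06 to 7.26 in livers, a difference of 0.08 (adjusted p = 0.782).

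The 3 chains of complement C1q, which macrophages secrete and which starts the classical complement pathway, moved together from array to array. C1qb was 9.57, 10.08, 12.17, 11.66 and 11.49 in tumours 1 to 5, against 10.92, 10.86, 10.89 and 9.92 in livers. Tumours 3, 4 and 5 were above every liver, tumours 1 and 2 were below livers 1 to 3, and liver 4 was low. C1qa (9.15, 9.45, 11.31, 10.97 and 10.68 in tumours, 10.46, 10.53, 10.39 and 9.55 in livers) had the same order of tumours. C1qc (8.90, 9.22, 11.24, 10.84 and 10.63 in tumours, 10.13, 10.22, 10.11 and 9.29 in livers) had it too. The differences were 0.08 for C1qa, 0.35 for C1qb and 0.23 for C1qc, with standard errors of 0.46, 0.53 and 0.49 and adjusted p of 0.904, 0.634 and 0.738. The other 2 probe sets of C1qb gave -0.02 and -0.17. C1qa, C1qb and C1qc turned negative when arrays were centred on housekeeping genes, at -0.41, -0.15 and -0.26.

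C1qa, C1qc and C1qb are neighbours among the protein-coding genes of their chromosome in the RefSeq annotation. The stretches before C1qb (chr4:136886201-136886450, minus strand) and C1qc (chr4:136892915-136893164, minus strand) are shown because their values tracked each other on all 9 arrays. Each holds the same motif once, as ACTTCC, with its first base 53 bases before the start in C1qb and 195 in C1qc.
C1qb: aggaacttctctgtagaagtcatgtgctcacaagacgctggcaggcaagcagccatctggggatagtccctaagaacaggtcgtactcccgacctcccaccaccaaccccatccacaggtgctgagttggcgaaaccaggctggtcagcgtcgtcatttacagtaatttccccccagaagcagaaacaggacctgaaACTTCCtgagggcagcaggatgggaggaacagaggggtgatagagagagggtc
C1qc: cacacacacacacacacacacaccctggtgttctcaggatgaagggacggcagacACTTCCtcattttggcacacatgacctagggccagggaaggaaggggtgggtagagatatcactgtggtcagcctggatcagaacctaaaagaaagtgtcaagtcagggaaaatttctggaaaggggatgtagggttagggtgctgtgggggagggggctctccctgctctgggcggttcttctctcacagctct
The motif was found before Clec4f, Timd4 and Vsig4, which were low in every tumour, and before C1qb and C1qc, which were not. The part of this motif in the results was not tested.

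**Figure D3:**
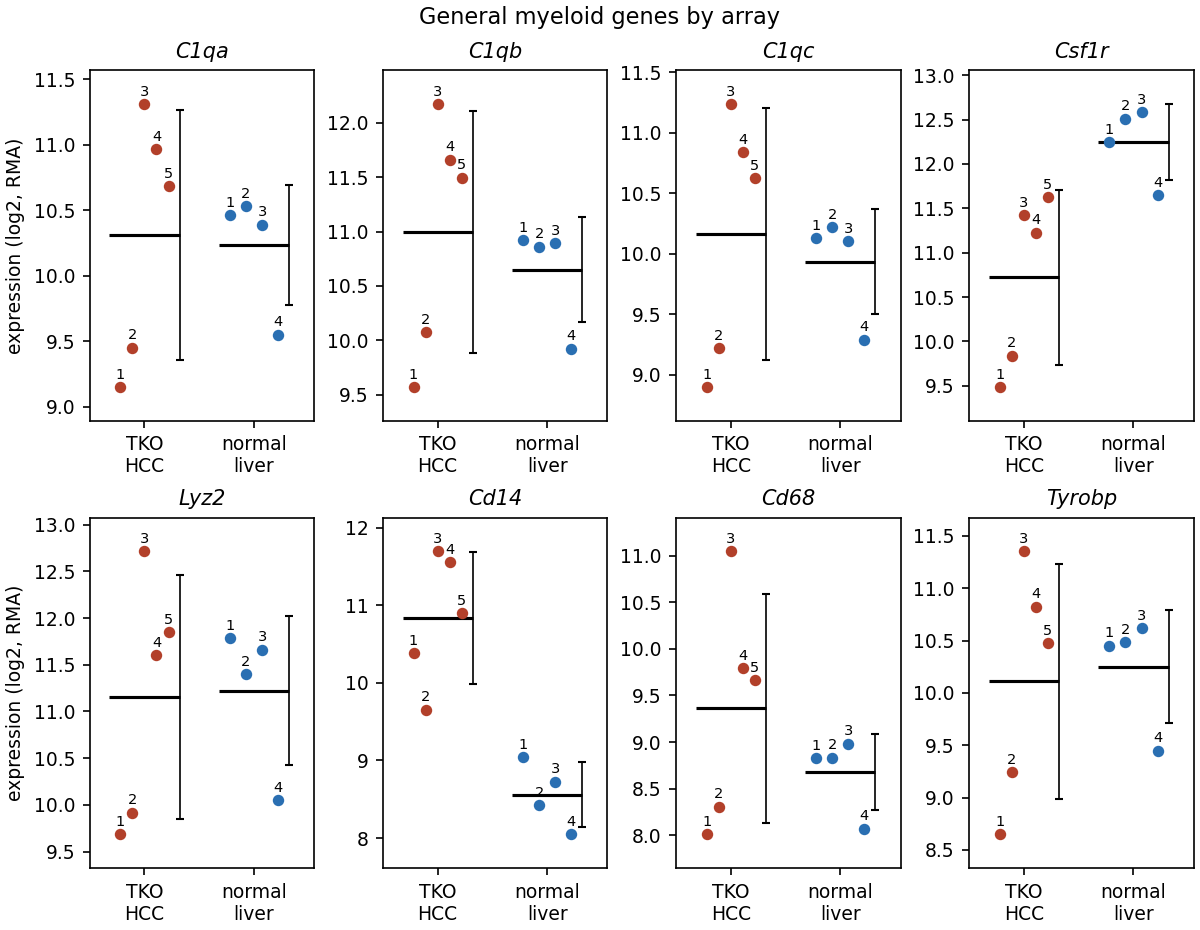
Log2 expression (RMA) of 8 general myeloid genes on each array, TKO HCC left and normal liver right, with replicate numbers, means and whiskers of 1 SD (n = 5 and 4). Tumours 1 and 2 are the lowest tumours in all 8 panels, and only Cd14 (9.65 to 11.69 in tumours, 8.05 to 9.04 in livers) and Csf1r (9.49 to 11.63 in tumours, 11.65 to 12.59 in livers) do not overlap.

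Among the genes used to mark macrophages as a whole, Cd14 alone passed as higher in the tumours with all 9 arrays. Cd14 is the co-receptor that hands lipopolysaccharide to Toll-like receptors, and hepatocytes can express it too. It was 10.38, 9.65, 11.69, 11.55 and 10.90 in tumours, against 9.04, 8.43, 8.73 and 8.05 in livers. Every tumour was above every liver, and Cd14 rose by 2.28 (SE 0.41, adjusted p = 0.00307), or 4.85-fold. The call held under all 18 alternatives, with an adjusted p of at most 0.0282.

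Csf1r, the receptor for the growth factors CSF1 and IL34, was 9.49, 9.84, 11.42, 11.23 and 11.63 in tumours, against 12.25, 12.51, 12.59 and 11.65 in livers. Tumour 5 came just below liver 4, and tumours 1 and 2 were far lower. Its difference was -1.53 (SE 0.47, adjusted p = 0.0333). Its other 2 probe sets gave -0.70 and -0.44 and did not pass. The call was lost without tumour 1 (-1.22), tumour 2 (-1.31), liver 1 (-1.53), liver 2 (-1.44) or liver 3 (-1.42), with the replicate block (-1.76) and with the mean of all its probe sets (-0.89), with adjusted p of 0.0504 to 0.0954. Msr1, a scavenger receptor for modified lipoproteins, was 6.72, 6.90, 8.03, 8.20 and 8.03 in tumours, against 9.02, 9.32, 9.34 and 8.39 in livers. All tumours were below all livers, and Msr1 fell by 1.44 (SE 0.36, adjusted p = 0.0143). Its 3 other probe sets fell as well, with differences of -1.02, -0.76 and -1.36, and the call was lost only with the replicate block (-1.56, adjusted p = 0.0548).

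Lyz2, the lysozyme of macrophages and granulocytes, was 9.69, 9.92, 12.71, 11.60 and 11.85 in tumours, against 11.78, 11.40, 11.66 and 10.05 in livers. The range of tumours enclosed that of the livers, and the difference was -0.07 (adjusted p = 0.941). Cd68, a lysosomal membrane glycoprotein, was 8.01, 8.31, 11.04, 9.79 and 9.67 in tumours, against 8.83, 8.83, 8.98 and 8.07 in livers. Tumours 3, 4 and 5 exceeded every liver, but the difference of 0.69 (SE 0.57) did not pass (adjusted p = 0.369). Adgre1, an adhesion receptor widely used to mark mouse macrophages, was 8.22 to 9.27 in tumours, against 8.69 to 9.52 in livers (-0.53, adjusted p = 0.16). Mpeg1, a pore-forming protein of phagosomes, was 10.48 to 12.08 in tumours, against 9.87 to 11.28 in livers (0.64, adjusted p = 0.209). Aif1, an actin-bundling protein of activated macrophages, was 6.51 to 8.80 in tumours, against 7.46 to 8.45 in livers (-0.46, adjusted p = 0.499).

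The Fc receptors and their adaptors gave no call. Tyrobp and Fcer1g, the adaptors that carry the activation motifs for many myeloid receptors, had differences of -0.14 and -0.01 (adjusted p = 0.855 and 0.989). Fcer1g was 8.27 to 10.29 in tumours, against 8.89 to 9.73 in livers. Tyrobp was 8.65, 9.25, 11.35, 10.83 and 10.47 in tumours, against 10.45, 10.49, 10.62 and 9.45 in livers. It thus followed the order of the C1q genes, with tumours 1 and 2 lowest, tumour 3 highest and liver 4 low. The IgG receptors Fcgr1 (6.22 to 8.30 in tumours, 7.52 to 7.88 in livers) and Fcgr3 (7.57 to 9.32 in tumours, 8.09 to 9.22 in livers) differed by -0.30 and -0.34 (adjusted p = 0.63 and 0.47). Ptprc, the CD45 phosphatase of all white cells (7.81 to 9.96 in tumours, 8.24 to 9.82 in livers), differed by -0.35 (adjusted p = 0.625). Laptm5, a lysosomal protein of blood cells (8.11 to 10.70 in tumours, 8.58 to 9.91 in livers), differed by -0.02 (adjusted p = 0.974). Of the 4 other probe sets of Laptm5, 1 passed as lower (-0.40, adjusted p = 0.00668), and 2 were positive (0.55 and 0.56).

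Genes of incoming monocytes and of lipid-laden macrophages had group means from 4.89 (Itgam in tumours) to 7.39 (Gpnmb in tumours). Ccr2, the receptor that draws monocytes along CCL2, was 6.69, 6.98, 6.81, 7.06 and 6.97 in tumours, against 7.42, 7.16, 7.26 and 7.39 in livers. The highest tumour lay just below the lowest liver, and Ccr2 fell by 0.41 (SE 0.10, adjusted p = 0.0122). None of its 3 other probe sets passed. The call was lost with the mean of the probe sets (-0.40), with the replicate block (-0.43) and without the 3 arrays of low Xist (-0.34). Cx3cr1, the fractalkine receptor of patrolling monocytes, was 6.18, 6.07, 7.07, 6.006 and 7.55 in tumours, against 5.94, 5.62, 6.004 and 5.79 in livers. Its groups did not overlap, but the gap was narrow and the difference of 0.73 (SE 0.32) did not pass (adjusted p = 0.103).

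Itgax, the integrin chain of dendritic cells and of some tissue macrophages, was 6.11, 6.19, 8.61, 7.72 and 7.49 in tumours, against 6.58, 6.06, 6.61 and 5.98 in livers. Tumours 3, 4 and 5 were above every liver (difference 0.92, adjusted p = 0.174). Gpnmb, a glycoprotein of lipid-loaded macrophages, was 5.99, 6.54, 8.72, 7.66 and 8.02 in tumours, against 6.42, 6.20, 7.48 and 6.46 in livers. The same 3 tumours exceeded every liver (difference 0.74, adjusted p = 0.307). Trem2, a lipid-sensing receptor of the same cells (6.34 to 7.30 in tumours, 6.44 to 6.63 in livers), differed by 0.21 (adjusted p = 0.447), with -0.20 in its other probe set. Itgam, the integrin chain of monocytes and neutrophils, was 4.54 to 5.13 in tumours, against 4.94 to 5.58 in livers, close to the background (-0.29, adjusted p = 0.234).

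**Figure D4:**
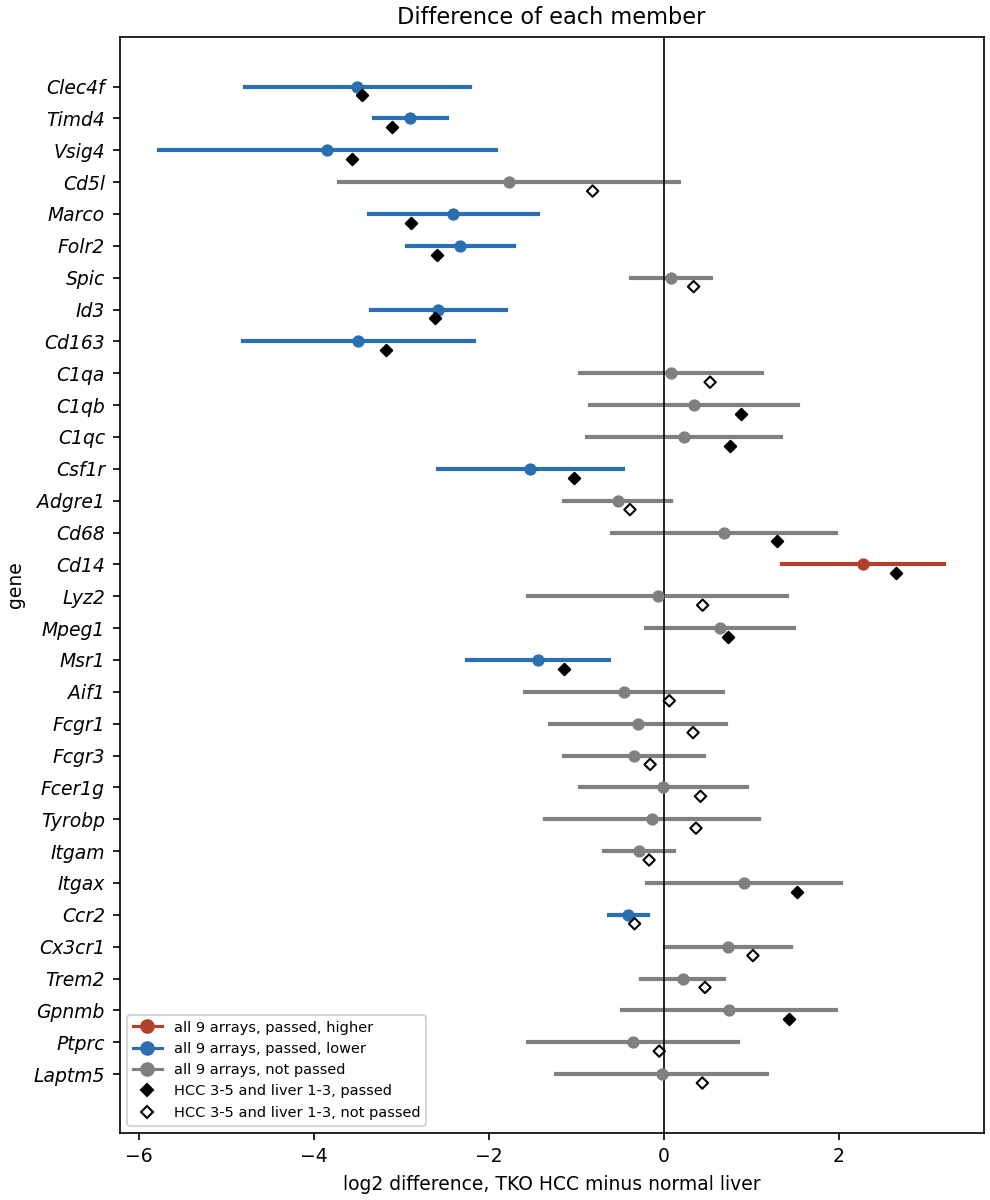
Log2 difference of each of the 32 members (horizontal axis, TKO HCC minus normal liver) with 95% intervals from all 9 arrays (circles) and without the 3 arrays of low Xist (diamonds). With all arrays 1 member passed as higher and 10 as lower, and without the 3 arrays 7 passed as higher and 9 as lower.

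The general myeloid genes varied between tumours in a shared way. The tumours of low Xist, 1 and 2, were the 2 lowest tumours in 22 of 27 general genes, an order found in 11.2% of all genes, and in 1 of 5 Kupffer-specific genes. Tumour 3 was the highest tumour in 15 of 27, against 18.7% of all genes. General genes above their liver mean numbered 3 in tumour 1, 2 in tumour 2, 19 in tumour 3, 18 in tumour 4 and 16 in tumour 5. Liver 4, the liver of low Xist, was the lowest liver in 25 of the 32 members, against 27.4% of all genes. The spread was larger over tumours than over livers in 26 of 32 members, against 58.0% of all genes.

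Leaving out the 3 arrays of low Xist set tumours 3 to 5 against livers 1 to 3. In this fit 7 general genes passed as higher, where 15.4% of all genes did. Cd14 (2.65, adjusted p = 0.000867), Itgax (1.52, 0.0144), Gpnmb (1.43, 0.0415), Cd68 (1.29, 0.0399), C1qb (0.88, 0.014), C1qc (0.75, 0.0183) and Mpeg1 (0.73, 0.0144) made up that group. Of all members 9 passed as lower, beside 12.5% of all genes. They were Clec4f (-3.45, adjusted p = 0.012), Timd4 (-3.11), Vsig4 (-3.56, adjusted p = 0.0367), Marco (-2.89), Folr2 (-2.60), Id3 (-2.62), Cd163 (-3.17), Csf1r (-1.02, adjusted p = 0.00385) and Msr1 (-1.14). The median of the 27 general genes was 0.37 in this fit. Tumours 1 and 2, left out here, were the 2 lowest tumours in most general genes. The higher calls of this fit thus depend on the choice of arrays and are no separate support. With low or high Xist as a term on all 9 arrays, 3 general genes passed as higher (Cd14, Itgax at 1.11 and Mpeg1 at 0.81), beside 16.6% of all genes. Among the low-Xist arrays alone, tumours 1 and 2 against liver 4, the differences were -3.29 for Clec4f, -2.31 for Timd4, -3.79 for Vsig4, -0.87 for Marco and -2.88 for Cd5l, with no test since liver 4 stood alone. Cd14 differed by 1.97 there and C1qb by -0.10. What the low Xist of these arrays stands for was not tested.

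On each array the median of a gene list, relative to the liver means, placed the Kupffer-specific genes below the general myeloid genes in every tumour. The Kupffer-specific median was -4.65, -2.81, -3.14, -1.76 and -2.53 in tumours 1 to 5, and 0.33, 0.23, 0.25 and -0.65 in livers 1 to 4. The general myeloid median was -1.08, -0.73, 0.76, 0.38 and 0.22 in the tumours, against 0.11, 0.19, 0.24 and -0.60 in the livers. The gap between the lists, Kupffer-specific minus general, was therefore -3.57, -2.08, -3.90, -2.14 and -2.75 in tumours, against 0.22, 0.05, 0.01 and -0.05 in livers. Liver 4 was low in both lists alike, while tumours 3, 4 and 5 were low in one and not in the other. Each gene was set against its own liver mean, which by itself keeps the liver medians and gaps small. These medians describe the arrays, and no test was run on the gap.

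**Figure D5:**
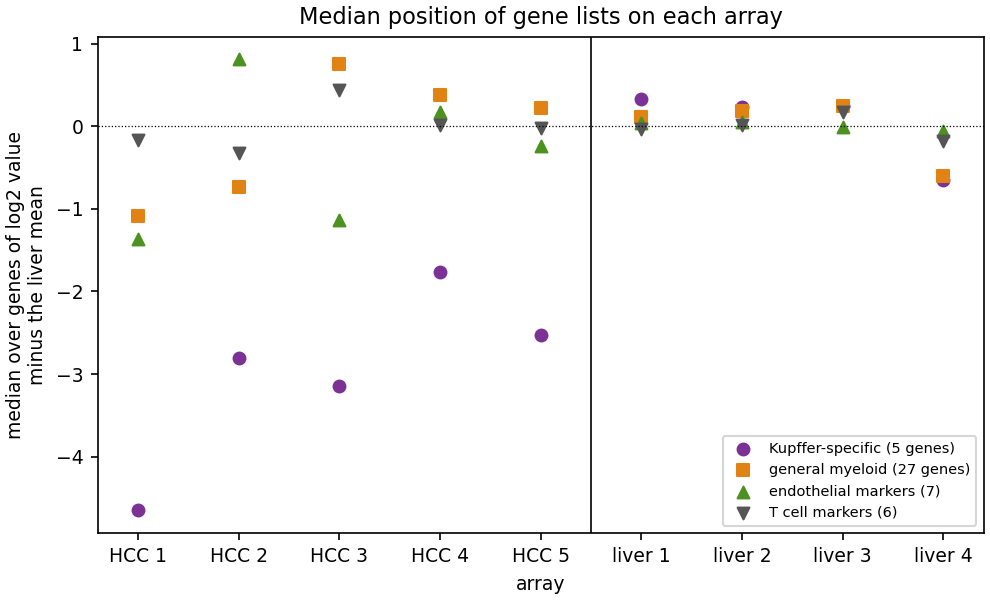
Median over the genes of each list of the log2 value minus the gene's liver mean, on each array, TKO HCC left and normal liver right. The Kupffer-specific median (5 genes) lay at -4.65 to -1.76 in tumours, and the general myeloid median (27 genes) at -1.08 to 0.76, while in livers both lay between -0.65 and 0.33.

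The lists that follow are read beside the same background of all genes, of which 17.4% passed as lower and 16.1% as higher, with a median of -0.08. Centring on housekeeping genes lowered every difference, which widens those of lower genes and narrows those of higher ones. Other genes enriched in Kupffer cells were lower or did not pass. Of 11 measured, 4 passed as lower and 0 as higher, with a median of -0.46. Fcna, a ficolin that tags microbes for complement, was 7.33 to 8.38 in tumours, against 10.22 to 10.80 in livers, and fell by 2.79 (adjusted p = 1.89e-05). Cd207, a lectin that mouse Kupffer cells share with Langerhans cells, fell by 2.15 (adjusted p = 0.00705). Adgre4, an adhesion receptor of macrophages, fell by 1.87 (adjusted p = 0.0112), although tumour 4 (8.50) exceeded liver 4 (7.98). Its call was lost with the replicate block (-1.83, adjusted p = 0.0978). The iron exporter Slc40a1 fell by 0.46 (adjusted p = 0.042), a call lost without any 1 of tumours 2 and 4 and livers 1 to 4 (-0.48 to -0.41). Slc11a1, a metal transporter of phagosomes, differed by 1.09 (adjusted p = 0.247).

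Of 9 transcription factors of macrophages, 1 passed as higher and 2 as lower, close to the shares of all genes. Maf, a factor that restrains self-renewal of macrophages and is expressed in other liver cells, was 7.98 to 9.66 in tumours, against 10.53 to 11.23 in livers, and fell by 1.88 (adjusted p = 0.00307; -1.15 with the mean of its probe sets). Tfec fell by 0.87 (adjusted p = 0.0268), a call lost without liver 1 (-0.90), liver 2 (-0.84) or liver 3 (-0.77). Cebpb, a factor of monocytes and hepatocytes, rose by 0.46 (adjusted p = 0.0116), and turned to -0.03 when arrays were centred on housekeeping genes. Runx1, a factor of blood cell development, was at -0.31 and did not pass (adjusted p = 0.0522).

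Growth and niche signals were lower in 5 of 11 and higher in 2, with a median of -0.28, and the count higher is close to the share of all genes. Bmp2, made by sinusoidal endothelium, was 5.65 to 7.41 in tumours, against 9.22 to 9.56 in livers, and fell by 2.86 (adjusted p = 0.000157). Gdf2, which encodes BMP9 and comes largely from stellate cells, fell by 1.60 (adjusted p = 0.000136). The ligands of Csf1r had smaller differences. Il34 fell by 0.59 (adjusted p = 0.0134; -0.48 and adjusted p = 0.102 without the arrays of low Xist), and Csf1 fell by 0.28 (adjusted p = 0.0199; lost without liver 1 at -0.27 and with the mean of its probe sets at -0.14). Csf2 fell by 0.28 (adjusted p = 0.0496), a call lost in 11 of 18 alternatives, among them omission of tumour 1, 2, 3 or 5 or liver 1, 3 or 4 (-0.30 to -0.215). Tgfb1, which many cell types make and which Kupffer cells need, rose by 1.41 (adjusted p = 0.00178; 0.65 with the mean of its probe sets). The Notch ligand Dll1 rose by 0.63 (adjusted p = 0.0145), a call lost with centring on housekeeping genes (0.14, adjusted p = 0.618) and without the arrays of low Xist (0.54, adjusted p = 0.0731).

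Of 13 phagocytic receptors 3 passed as lower, close to the share of all genes, and 1 as higher, below it. Fcgr2b, the inhibitory IgG receptor of Kupffer cells and sinusoidal endothelium, was 7.42 to 9.75 in tumours, against 10.73 to 11.37 in livers, and fell by 2.42 (adjusted p = 0.00232). Mrc1, the mannose receptor of the same 2 cell types, fell by 1.50 (adjusted p = 0.00203). Tyro3 (-0.31, adjusted p = 0.0471) and Sirpa (0.85, adjusted p = 0.0495) were at the threshold. The call of Tyro3 was lost without tumour 1, 3, 4 or 5 or liver 1, 2 or 4 (-0.33 to -0.25), and its difference turned to 0.04 with the mean of its probe sets. The call of Sirpa was lost in 12 of 18 alternatives, among them omission of tumour 1, 3, 4 or 5 or any liver (0.66 to 0.93) and centring on housekeeping genes (0.36, adjusted p = 0.325). In the lysosome and lipid list 3 of 9 passed as higher, beside 16.1% of all genes, and 0 as lower. Lipoprotein lipase, Lpl, rose by 3.98 (adjusted p = 7.06e-06) and the tetraspanin Cd9 by 2.53 (adjusted p = 0.00152), and both are expressed outside macrophages too. The protease Ctsb was at 0.38 (adjusted p = 0.0358), a call lost without tumour 3, 4 or 5 or any liver (0.32 to 0.41). It was 0.23 with the mean of its probe sets and turned to -0.11 when centred on housekeeping genes.

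Of 9 inflammatory mediators 2 passed as lower, close to the share of all genes, and 0 as higher. Il18 was 7.65 to 9.05 in tumours, against 9.87 to 10.77 in livers, and fell by 1.74 (adjusted p = 0.00213). Il1b fell by 1.06 (adjusted p = 0.0054). Among 11 signalling and oxidase genes of myeloid cells, Ncf1, a subunit of the phagocyte oxidase, fell by 0.67 (adjusted p = 0.0087), and Fgr was at 0.55 (adjusted p = 0.0252), a call lost in 8 of 18 alternatives. Its difference was 0.06 with centring on housekeeping genes, 0.26 with the mean of its probe sets, and 0.46 to 0.57 without tumour 5 or liver 1, 2 or 4. Of 10 monocyte and recruitment genes 0 passed in either direction.

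Markers of other cells gave the following values beside the members. Endothelium, which in the sinusoids shares scavenger and Fc receptors with Kupffer cells, had 3 of 7 markers lower and 2 higher, beside 17.4% and 16.1% of all genes. Clec4g fell by 4.08, Stab2 by 1.60 and Kdr by 1.15, and Cd34 rose by 1.77 (adjusted p of 0.000157 to 0.00153). With the mean of its probe sets Clec4g was at -2.17. Stellate cell markers were lower in 3 and higher in 1 of 7. Their summed levels, in which the brightest markers weigh most, were 11.37 to 12.62 in tumours, against 13.08 to 13.49 in livers. The median difference was -0.37 over the endothelial list and 0.06 over the stellate list, and each list held calls in both directions. Reln fell by 2.66 (adjusted p = 0.000652) and Col1a1 rose by 2.14 (adjusted p = 0.0116), with -1.38 and 1.31 for the mean of their probe sets. No marker is at 0 on this scale, whose lowest value in the table was 3.13.

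Markers of other blood cells, of hepatocytes and of bile ducts gave either no call or calls that were lost in several alternatives. Of the T cell markers 0 of 6 passed, with summed levels of 9.09 to 9.68 in tumours, against 9.06 to 9.34 in livers. Of 7 neutrophil markers 0 passed (8.99 to 11.70 in tumours, 9.53 to 12.68 in livers). Of the B cell markers 2 of 4 passed as lower (8.04 to 8.65 in tumours, 8.36 to 9.07 in livers), of the NK cell markers 1 of 4 (7.42 to 7.94 in tumours, 7.43 to 8.22 in livers) and of the dendritic cell markers 1 of 6 (8.77 to 9.13 in tumours, 8.85 to 9.01 in livers). Of 5 hepatocyte markers 0 passed (16.98 to 17.10 in tumours, 17.03 to 17.19 in livers), and of 2 red cell markers 0 passed (8.18 to 9.75 in tumours, 8.62 to 11.69 in livers). Of 4 bile duct markers 1 was higher and 1 lower (8.57 to 9.09 in tumours, 8.42 to 8.73 in livers).

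The calls among these markers were Pax5 and Ms4a1 of B cells, Gzma of NK cells, Zbtb46 of dendritic cells, and Krt7 (lower) and Sox9 (higher) of bile ducts. Pax5, a B cell transcription factor, was at -0.24 (adjusted p = 0.0272), lost in 7 of 18 alternatives, among them omission of tumour 3, 4 or 5 or liver 2 or 3. Ms4a1, which encodes CD20, was at -1.12 (adjusted p = 0.0463), lost in 9, among them omission of tumour 1, 2, 3 or 5 or liver 1, 2 or 3. Gzma, a granzyme, was at -0.49 (adjusted p = 0.0311), lost in 5, among them omission of tumour 1 or 5 or liver 2 or 3. Zbtb46, a dendritic cell factor that endothelium also expresses, was at -0.37 (adjusted p = 0.038), lost in 7, among them omission of tumour 2, 3 or 5 or liver 1 or 4. Krt7, a keratin, was at -0.29 (adjusted p = 0.0432), lost in 11, among them omission of any tumour or of liver 2, 3 or 4. Sox9, a progenitor and duct factor, was at 1.32 (adjusted p = 0.0235), lost in 7, among them omission of tumour 1, 3 or 5 or liver 1 or 3, and 0.75 with the mean of its probe sets. The part of these cells in the results for the members was not tested.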

How the data were processed

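RNA of 5 tumours and 4 normal livers was extracted with Trizol, amplified in 2 rounds with RiboAmp, per the labels' protocols, and read on the Affymetrix array Mouse Genome 430-2.0. The authors deposited log2 values per probe set. RMA is named by the submitters' processing notes, and its version was not given in the sources used here. In all, 45101 probe sets were deposited for 9 arrays, between 3.13 and 15.5. RMA as commonly run equalises the distributions of arrays, which can hide a general shift. Precision is limited by how many arrays there are. Scan batches are not stated in the labels. Arrays were compared and none was a copy, the closest pair differing by a root mean square of 0.311.

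Samples were grouped by title. Platform annotation named 1 gene for 34945 probe sets, several for 932 and none for 9160, with 64 controls left out. Of the 34945, 34741 were found in RefSeq (GRCm38.p6), with 0 symbols changed. Per gene the probe set of highest mean was taken, which gave 18193 genes. Of the members, 20 had 1 probe set and 4 (Spic, Aif1, Trem2 and Laptm5) were read by x_at or s_at sets, whose probes may bind similar genes. Groups were compared with limma 3.58.1 in R 4.3.3 (lmFit, eBayes, two-sided, no covariate), and Benjamini-Hochberg adjustment ran over all genes. Each adjusted p of a gene is from this test or, where an alternative is named, from the limma fit of that alternative. For the other probe sets of a gene, the test and its adjustment ran over all probe sets except controls. Tables and figures used Python 3.11.15, numpy 2.4.6, pandas 2.3.3 and matplotlib 3.10.9. A promoter is the 250 bases before a RefSeq start, and 26 of 32 members had one in the table used (not Msr1, C1qa, Adgre1, Tyrobp, Csf1r and Cd14).

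The members and lists were chosen with earlier results of these data known. All 32 members are named. From each other list the rule takes up to 3 genes of lowest adjusted p that went with most of the list. It also takes up to 1 that went against it. The text names those of these genes that passed, with Slc11a1, Runx1 and Alas2, and gives the others as counts. Slc40a1, Csf1, Csf2, Dll1 and Spi1 lie outside that rule and were named after their values were seen. Alternatives were the mean of a gene's probe sets, no x_at or s_at sets, a mean of at least 5, centring on housekeeping genes or on the 75th percentile, a trended robust variance, a replicate block, omission of each array in turn and omission of the 3 arrays of low Xist. Low or high Xist as a term was added after the data had been seen.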

Additional observations from a re-analysis of the deposited data

Results flagged for a closer look

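An array was singled out where its gap to the next of its group filled most of the group's range (Dixon's test at 95%). This was checked in 140 groups of values, for the members, the named genes of other lists that passed, and Spi1. Slc11a1, Runx1 and Alas2 were not checked. In all, 15 arrays were singled out, 10 of them liver 4. Chance singles out about 1 group in 20.

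Liver 4 was low for Marco (6.59, other livers 8.61 to 8.92), C1qa (9.55, others 10.39 to 10.53), C1qb (9.92, others 10.86 to 10.92) and C1qc (9.29, others 10.11 to 10.22). It was also low for Adgre1 (8.69, others 9.47 to 9.52), Fcgr1 (7.52, others 7.82 to 7.88), Tyrobp (9.45, others 10.45 to 10.62) and Ptprc (8.24, others 9.61 to 9.82). Of the genes outside the members, Maf (10.53, others 11.11 to 11.23) and Ctsb (13.04, others 13.29 to 13.33) were low there. Among these, Marco and Maf still passed as lower in tumours without liver 4. Alas2, a red cell gene, was 11.68 in liver 4 and 8.54 to 8.98 in the other livers.

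In tumours, Cd163 was high in tumour 5 (5.66, others 4.37 to 4.72), Adgre4 in tumour 4 (8.50, others 6.51 to 6.96), Gdf2 in tumour 5 (7.82, others 7.05 to 7.23) and Col1a1 in tumour 3 (10.33, others 7.63 to 8.21). Reln was high in liver 1 (11.08, others 10.96) by a margin that is small beside its difference of -2.66 between the groups.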

How the results depend on the processing

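Of the 32 members 1 passed as higher under all alternatives except omission of the 3 arrays of low Xist (7 members) and Xist as a term (3 members). With each array left out in turn, members higher stayed at 1, members lower numbered 9 to 11 and Kupffer-specific genes lower 4 to 5, while all genes higher ran from 2348 to 3251 and all genes lower from 2284 to 3110. Centring on housekeeping genes, of which 5 of 9 passed as higher and 1 as lower in tumours, gave 1125 genes higher and 10829 lower, against 2926 and 3165 with the deposited scale, and a median of all genes of -0.57 in place of -0.08; the Kupffer-specific median was then -3.39 and the general myeloid median -0.56. Centring on the 75th percentile gave 2406 higher and 6972 lower, with medians of -0.23, -3.05 and -0.22. The replicate block, which leaves out tumour 5, gave 2021 genes higher and 1531 lower, and 4 Kupffer-specific and 3 general genes lower. Deviations of same-numbered arrays from their group means had r of -0.13, -0.07, 0.18 and -0.12, and those of unlike numbers -0.15 to 0.18. The titles state no pairing, and these correlations cannot exclude one.

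Members that turned sign did not pass in the deposited scale. Under housekeeping centring these were Spic (-0.41), C1qa (-0.41), C1qb (-0.15), C1qc (-0.26) and Trem2 (-0.28), with Spi1 (-0.47) and the called genes Cebpb (-0.028) and Ctsb (-0.11). The 75th percentile turned Spic (-0.068), C1qa (-0.067) and Spi1 (-0.12), and the replicate block Spic (-0.051), C1qa (-0.012) and Spi1 (-0.020). Without the arrays of low Xist, Lyz2 (0.44), Aif1 (0.061), Fcgr1 (0.33), Fcer1g (0.42), Tyrobp (0.37) and Laptm5 (0.44) turned positive, and with Xist as a term Lyz2 (0.23), Fcer1g (0.18), Tyrobp (0.10) and Laptm5 (0.22). Without x_at and s_at sets Trem2 was -0.20, and with the mean of probe sets Laptm5 was 0.12 and Tyro3, a called gene, 0.041. With single arrays left out, the signs of Spic (-0.051 to 0.22), C1qa (-0.17 to 0.37), C1qc (-0.040 to 0.54), Lyz2 (-0.46 to 0.30), Fcgr1 (-0.50 to 0.020), Fcer1g (-0.22 to 0.28), Tyrobp (-0.45 to 0.22), Laptm5 (-0.34 to 0.30) and Spi1 (-0.084 to 0.17) were not settled. Adgre1 passed as lower under housekeeping centring (-1.02) and with Xist as a term (-0.40), and Itgam under housekeeping centring (-0.78). Dim genes such as Itgam and Timd4 in tumours lie near the background, where RMA understates differences. The causes of these changes were not tested.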
